A study of Mus musculus with 10 samples.

Results

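The mitochondrial genome transcripts are the genes that the deposited count table places on chromosome MT, 37 of its 48476 genes. Of these, 13 encode proteins of the respiratory chain and ATP synthase, 2 encode the ribosomal RNAs of the mitochondrial ribosome and 22 encode tRNAs. The 13 protein genes and both rRNA genes had a mean of at least 10 expected counts per library, and these 15 are described one by one. All 22 tRNA genes were at 0 expected counts in all 10 libraries. The tRNA genes are 59 to 75 bases long, and their effective lengths, the number of start positions that RSEM allows a fragment, were only 11.09 to 23.86 bases, which leaves little room for a fragment, so no upper limit is given for the tRNAs.

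The mitochondrial genome is a small circle that is transcribed from both strands by the polymerase Polrmt with the factors Tfam and Tfb2m. Long precursors are cut at the tRNAs that lie between the other genes, and most of the released mRNAs receive a poly(A) tail from Mtpap, so a library made from poly(A) RNA holds them. All of the encoded proteins are subunits of complexes I, III, IV and V, which are completed by subunits encoded in the nucleus. Reprogramming of fibroblasts to pluripotency is known to come with a change of energy metabolism, and the question here was how this set of transcripts moved along the time course and between its arms.

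Mouse embryonic fibroblasts (MEFs) came from E13.5 embryos of the strain CBA/CaJ X C57BL/6J and, by the study's methods, carried an Oct4-GFP reporter. They were infected with retroviruses that carried Oct4, Klf4 and Sox2 (OKS), together with either the fluorescent protein DsRed (OKS+DR, the control) or FoxO6 (OKS+FoxO6). The infected cells were kept in iCD1 medium. Both arms thus carried the 3 reprogramming factors, and they differed in the additional virus. RNA was sequenced at days 0, 1, 3, 5 and 7, with 1 library for each arm and day, which makes 10 libraries, so a difference on a single day has no replicate check. An arm's 5 libraries may stem from 1 infected culture, and the p-values below describe the spread between these libraries and not between independent infections.

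The table summed to 1206378 to 2221440 expected counts per library, of which 34832 to 94817 fell on mitochondrial genes. The Foxo6 gene had a TPM (a level per length, scaled to a fixed sum in each library) of 0.61 to 2.29 in the OKS+DR libraries and of 762 to 1356 in the OKS+FoxO6 libraries, day 0 included, so the arms followed their labels. The 6 fibroblast markers summed to 6181 to 7360 TPM at day 0, while the macrophage markers stayed at or under 53.7 TPM, nearly all from Cd68, and the endothelial markers summed to 18.7 to 104 TPM, nearly all from Tek, with Pecam1 at or under 5.73 TPM and Cdh5 at or under 1.24 TPM. The OKS+FoxO6 library of day 7 stood apart in the length of the genes that its counts fell on. The effective length behind a count (total counts divided by the sum of counts per base) was 1743 bases there and 1871 to 2035 bases in the other 9 libraries. The fits were therefore also run without it, and day 7 ratios are given for each arm apart, so that those of OKS+DR do not use it.

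Several mitochondrial genes have near-perfect copies in the nuclear genome, and the sequences show why their counts need to be read together. A block of unprocessed pseudogenes on the minus strand of chromosome 1 (GRCm38, 24611535 to 24616197, GENCODE M21) repeats the mitochondrial genes from the end of mt-Co1 to the first part of mt-Nd4. The last 60 bases of mt-Co2, which encodes subunit 2 of cytochrome c oxidase (MT:7637-7696, plus strand), and the end of its copy Gm28661 (chr1:24614885-24614941, minus strand) are shown because no base tells them apart up to the stop codon of mt-Co2, in capitals, before which the annotated copy ends.
mt-Co2: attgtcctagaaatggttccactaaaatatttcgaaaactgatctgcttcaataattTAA
Gm28661: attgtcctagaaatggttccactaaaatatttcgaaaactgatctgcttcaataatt
The first 60 bases of mt-Nd3, a subunit of complex I (MT:9459-9518, plus strand), and those of Gm28438 (chr1:24613060-24613119, minus strand) are shown because a single base, in capitals, separates the genes over 345 bases. Counted from the first base of mt-Nd3 it is T3C, with the mitochondrial base first.
mt-Nd3: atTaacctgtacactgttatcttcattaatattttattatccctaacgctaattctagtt
Gm28438: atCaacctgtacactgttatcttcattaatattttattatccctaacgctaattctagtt
For mt-Co1, subunit 1 of cytochrome c oxidase, Gm29216 covers only the last 492 of 1545 bases, and the 6 differences between them, in capitals, all lie at the start of that stretch (MT:6381-6440, plus strand, and chr1:24616138-24616197, minus strand).
mt-Co1: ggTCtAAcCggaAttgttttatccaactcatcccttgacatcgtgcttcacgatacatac
Gm29216: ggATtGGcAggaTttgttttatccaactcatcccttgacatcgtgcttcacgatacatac
Gm28661 was identical to mt-Co2 over all 681 of its bases, Gm10925 to mt-Atp6 over 678, Gm28437 to mt-Co3 over 783, Gm28439 to mt-Nd4 over 876 and Gm10222 to mt-Nd4l over 294. No 50-base window of mt-Rnr1, mt-Nd1, mt-Atp8, mt-Nd6 or mt-Cytb was found in an annotated nuclear gene, and these 5 genes serve below as those without such a copy.

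The mitochondrial genes also overlap each other. The reading frames of mt-Atp8 and mt-Atp6, the ATP synthase subunits that are made from 1 mRNA, share 43 bases, and those of mt-Nd4l and mt-Nd4, complex I subunits that also share an mRNA, share 7 bases. The shared bases are in capitals (MT:7917-7979 and MT:10157-10183, plus strand).
mt-Atp8/mt-Atp6: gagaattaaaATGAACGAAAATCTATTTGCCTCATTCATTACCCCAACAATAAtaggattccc
mt-Nd4l/mt-Nd4: acctactacaATGCTAAaaattattct
Of the 13 protein genes, 3 end in the annotation with an unfinished stop codon, of which only the first T is encoded, and the poly(A) tail completes it. Their last 30 bases are shown with this T in capitals, since these transcripts depend on the tail that the library preparation also selects (mt-Co3 at MT:9361-9390, mt-Nd4 at MT:11515-11544 and mt-Cytb at MT:15259-15288, plus strand).
mt-Co3 end: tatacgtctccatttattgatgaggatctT
mt-Nd4 end: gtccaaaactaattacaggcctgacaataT
mt-Cytb end: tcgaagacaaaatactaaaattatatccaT

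Mitochondrial genes took a larger share of the expected counts at day 7 than at day 0 in either arm. In OKS+DR, the share on days 0, 1, 3, 5 and 7 was 2.89%, 3.66%, 3.96%, 4.36% and 5.09%. In OKS+FoxO6 the values were 2.68%, 3.92%, 4.27%, 4.199% and 4.86%. On this scale day 0 was the lowest library of each arm and day 7 the highest, with a ratio of 1.76 in OKS+DR and 1.81 in OKS+FoxO6. The exact binomial 95% intervals cover counting error only and are narrow, for example 2.86% to 2.92% for OKS+DR at day 0. The share in OKS+FoxO6 divided by that in OKS+DR was 0.929, 1.07, 1.08, 0.963 and 0.954 over the 5 days, so neither arm was higher throughout. With 6 chromosome 1 copies added (those named above except Gm10222, which never held over 34.75 counts), the ratio at day 7 turned to 1.02. In TPM the mitochondrial genes made up 5.82% to 10.4% of a library, and on this scale the ratio at day 7 was 0.873. The highest OKS+FoxO6 library in TPM was that of day 3 (9.57%), above day 5 (9.28%) and day 7 (9.09%).

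**Figure D1:**
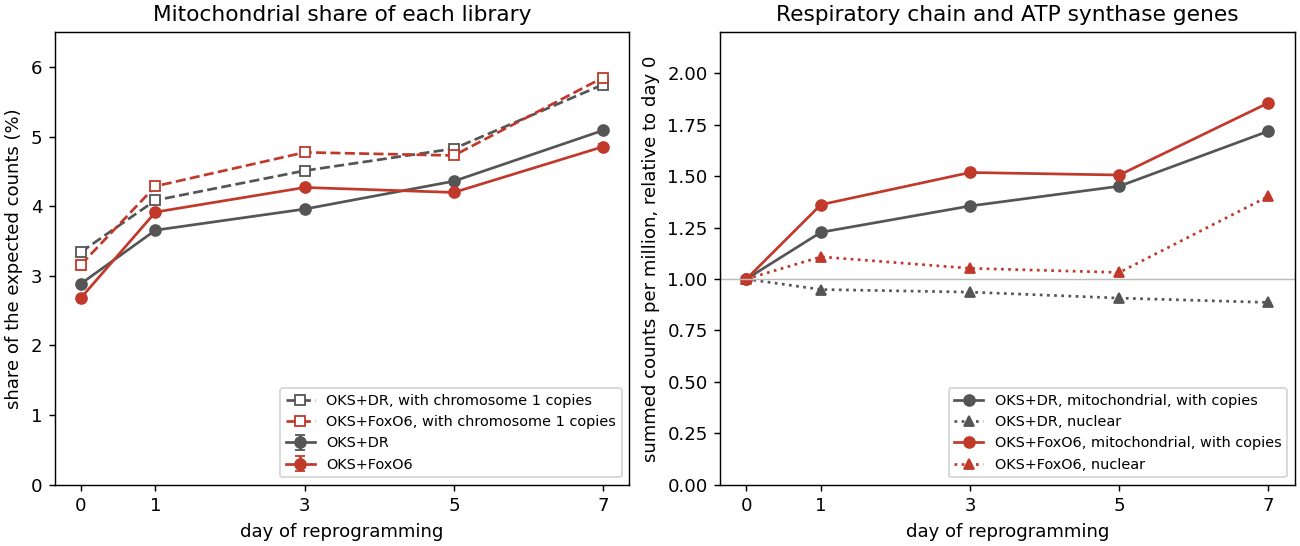
Left, share of the expected counts on mitochondrial genes (%) by day, as filled points with exact binomial 95% intervals that are smaller than the points, and with 6 chromosome 1 copies added as open squares; right, summed CPM (counts scaled to a fixed library total) of mitochondrial protein genes (with their copies) and of 75 nuclear genes of complexes I to V, each divided by day 0 of its arm. The share climbs from 2.89% to 5.09% in OKS+DR and from 2.68% to 4.86% in OKS+FoxO6. In CPM the nuclear genes end at 0.886 times day 0 in OKS+DR and at 1.40 times in OKS+FoxO6. The ratio of OKS+FoxO6 is smaller in TPM.

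Cell identity moved over the same days. The fibroblast markers fell from 7360 to 2291 TPM in sum in OKS+DR and from 6181 to 2454 TPM in OKS+FoxO6 between days 0 and 7, and all 6 were called lower at day 7 in the fit described below, where 10.1% of all genes tested were. The epithelial markers went from 11.2 to 608 TPM in OKS+DR and from 3.14 to 132 TPM in OKS+FoxO6, with Cdh1, Epcam and Krt8, the 3 that were tested, called higher at day 7, where 11.2% of all genes tested were. All 3 were also called lower in OKS+FoxO6 over the days, where 14.1% of all genes tested were called in either direction, with log2 fold changes of -3.12 (adjusted p = 3.72e-05), -1.87 (adjusted p = 0.00491) and -2.06 (adjusted p = 0.00038). Of the 6 fibroblast markers, Col3a1 was called lower in OKS+FoxO6 (-0.64, adjusted p = 0.0191). Tek, the endothelial marker that was tested, was called higher at day 7 (log2 fold change 1.49, adjusted p = 0.000622) and higher in OKS+FoxO6 over the days (0.95, adjusted p = 0.00114). The part of these changes in the mitochondrial share was not tested, and in bulk RNA a larger fraction of cells with many mitochondrial transcripts cannot be told apart from more of them per cell.

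Per length, the order of the levels was much the same in every library. For this order each gene was summed with its nuclear copy and given as counts per kilobase of effective length, scaled to the library total. mt-Co1 was the highest in all 10 libraries, at 7328 to 12993, and it was also the gene with the most counts of the whole table in each library. mt-Atp6 and mt-Co2 took the next places in every library, with medians of 7445 and 7259, and changed places between libraries. mt-Cytb, the mitochondrial subunit of complex III (median 4576), mt-Co3 (4124) and mt-Nd1 (4009) exchanged places 4 to 6. The remaining complex I genes ran from mt-Nd4 (2841) over mt-Nd2 (2258), mt-Nd4l (1994), mt-Nd5 (1522) and mt-Nd6 (1387) to mt-Nd3 (743). The ranges of mt-Nd4l, mt-Nd5, mt-Nd6 and mt-Nd3 overlapped, and the order of these neighbours changed from library to library. In OKS+FoxO6 at day 7 mt-Nd3 (1486) stood above mt-Nd5 (1484) and mt-Nd4l (1380). mt-Atp8 had a median of 3230 and took places 7 to 9. Both rRNAs were last in all 10 libraries, mt-Rnr2 at a median of 184 and mt-Rnr1 at 102. They made up 0.774% to 1.52% of the mitochondrial counts, although rRNA is known to be the most abundant mitochondrial RNA in cells. The part of poly(A) selection in this was not tested.

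mt-Co1 alone held 28.6% to 35.4% of the mitochondrial counts of a library (median 32.1%), mt-Cytb 10.2% to 13.7%, mt-Atp6 9.49% to 11.96%, mt-Nd4 7.74% to 10.7% and mt-Nd1 7.95% to 10.1%. Ratios between neighbouring genes, each summed with its copy where it has one, varied to different degrees. mt-Atp8 per length was 0.336 to 0.466 times mt-Atp6, a spread of 1.39 times over the libraries, and mt-Nd4l was 0.349 to 0.822 times mt-Nd4, a spread of 2.35 times. mt-Nd6 over mt-Nd5, which share no mRNA, varied by 1.71 times and mt-Rnr2 over mt-Nd1 by 2.18 times. The low end for mt-Atp8 and mt-Nd4l and the high end for mt-Nd6 was the OKS+FoxO6 library of day 7. Without it the spreads were 1.21, 1.54 and 1.16 times. For mt-Atp8 the low end came with the copy of mt-Atp6, since the TPM ratio of the genes alone was 0.433 in that library and lowest in OKS+DR at day 0, at 0.397. mt-Rnr1 and mt-Rnr2, which lie on either side of a tRNA on the heavy-strand precursor, ranged in their ratio from 0.152 to 0.902, a spread of 5.94 times. The lowest value was that of OKS+DR at day 7, and without this library the ratios began at 0.358 and the spread was 2.51 times.

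Day 7 was compared with day 0 in a fit across all genes, edgeR's quasi-likelihood test on rounded expected counts with day and arm as factors, in which both arms stand in for replicates. After Benjamini-Hochberg adjustment, 12 of the 15 mitochondrial genes were called at a threshold of 0.05, all of them higher at day 7, where 11.2% of the 10977 genes tested were called higher. The median log2 fold change was 0.88 over the 15 genes and 0.028 over all genes tested. The largest changes were in subunits of complex I. mt-Nd2 (MT, 3914 to 4951) had a TPM of 2282, 3597, 4355, 4629 and 5670.04 on the 5 days in OKS+DR and of 2318, 3925, 4863, 5335 and 5986 in OKS+FoxO6. It was higher on each later day than on the one before in both arms, and both day 7 libraries lay above all others. Its log2 fold change was 1.37 (SE 0.16, adjusted p = 0.000142).

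mt-Nd6 is the single protein gene on the light-strand precursor (MT, 13552 to 14070, minus strand). Its TPM was 1385, 2662, 2510.3, 3168 and 4069 in OKS+DR and 1787, 2654, 3624, 2923 and 3609 in OKS+FoxO6. Both day 0 libraries were the lowest, and the log2 fold change was 1.32 (SE 0.19, adjusted p = 0.000634). Whether reads were counted by strand is not given in the sources used here, so mt-Nd6 cannot be told apart from heavy-strand RNA that runs across the same bases. Its level per length was 0.816 to 0.944 times that of its neighbour mt-Nd5 in 9 libraries and 1.40 times in OKS+FoxO6 at day 7.

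mt-Cytb (MT, 14145 to 15288), a gene without a nuclear copy, had a TPM of 5129, 7611, 9253, 8958 and 9319 in OKS+DR and of 5100.08, 8101, 9698, 9807 and 10660.25 in OKS+FoxO6. In both arms most of the change was complete by day 3, and the log2 fold change of day 7 against day 0 was 1.00 (SE 0.16, adjusted p = 0.00102). mt-Nd4 rose to the same extent (log2 fold change 1.02, SE 0.15), and mt-Nd1 by 0.93 (SE 0.16). mt-Co1 (MT, 5328 to 6872) had a TPM of 12529, 16379, 16874, 18893 and 22091 in OKS+DR, a rise on every day. In OKS+FoxO6 it had 12927, 15957, 17032, 17034 and 16304, without a further rise after day 3 in TPM. In CPM it had 12422 at day 3, 12455 at day 5 and 13907 at day 7, so the course after day 3 depends on the scale. Over both arms its log2 fold change was 0.61 (SE 0.14, adjusted p = 0.00912). The genes of ATP synthase rose by similar amounts, mt-Atp6 by 0.66 (SE 0.18) and mt-Atp8 by 0.58 (SE 0.17), as did mt-Co3 with 0.61 (SE 0.14). With a linear trend over the days mt-Atp6 and mt-Atp8 missed the threshold (adjusted p = 0.0793 and 0.0832), and mt-Atp8 did so too with no filter on low counts (0.0512) and with day 1, 3 or 5 left out (0.0572 to 0.0595). mt-Co3 missed the threshold when it was summed with Gm28437, with 0.44 and an adjusted p of 0.0616, and the copy had been given 22.4% of their counts in OKS+DR at day 0 and at most 4.97% in any other library.

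In OKS+FoxO6, the TPM at day 7 was below that of days 1, 3 and 5 for 5 genes, mt-Nd5, mt-Nd4l, mt-Atp6, mt-Atp8 and mt-Co2. For mt-Atp6 and mt-Atp8 this was not so in CPM, where mt-Atp6 had 4409, 4907, 4669 and 4687 on days 1, 3, 5 and 7 and mt-Atp8 452, 471, 464 and 469.8. Summed with their copies, mt-Atp6 and mt-Co2 were highest at day 7 in that arm, at 6030 and 6315 CPM. mt-Nd5 and mt-Nd4l were below days 1, 3 and 5 in CPM as well. The TPM of mt-Nd5 (MT, 11742 to 13565) was 1689, 2853, 3034, 3437 and 4335 in OKS+DR and 2117, 3047, 3837, 3584 and 2582 in OKS+FoxO6. That of mt-Nd4l (MT, 9877 to 10173) was 1657, 3689.6, 4477, 4343 and 4127 in OKS+DR and 2215, 3566, 4214, 4321 and 2401 in OKS+FoxO6. Both genes were called higher at day 7, with log2 fold changes of 0.88 (SE 0.21) and 0.76 (SE 0.21). The call of mt-Nd4l was lost with a linear trend (adjusted p = 0.254) and without day 3 (adjusted p = 0.0507). Without the OKS+FoxO6 library of day 7 these became 1.23 and 1.06, and mt-Nd2, mt-Nd6, mt-Cytb and mt-Co1 stood at 1.30, 1.40, 0.83 and 0.71. The same 12 genes were called higher without it.

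The 3 genes not called were mt-Rnr1, mt-Co2 and mt-Nd3. The small subunit rRNA mt-Rnr1 (MT, 70 to 1024) and mt-Co2 had negative values, and the other 13 genes positive ones. The TPM of mt-Rnr1 was 280.5, 127, 178, 144 and 124 in OKS+DR and 319, 243, 235, 161 and 244 in OKS+FoxO6. Day 0 was the highest library of each arm, and every OKS+FoxO6 library lay above the OKS+DR library of its day. The log2 fold change of day 7 against day 0 was -0.71 (SE 0.27, adjusted p = 0.0846). Without the OKS+FoxO6 library of day 7 it was -1.12 and passed the threshold (adjusted p = 0.0207), the single mitochondrial gene called lower. It was also called with no filter on low counts (-0.74, adjusted p = 0.0225), and over all alternatives the adjusted p ran up to 0.211. The large subunit rRNA mt-Rnr2 (MT, 1094 to 2675) moved the other way. Its TPM was 335, 354, 361, 369.6 and 819.6 in OKS+DR and 354, 416, 391.7, 339 and 504 in OKS+FoxO6, so it was level until day 5 and high in both day 7 libraries (log2 fold change 0.95, SE 0.20, adjusted p = 0.00643). A linear trend over the days did not call it.

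**Figure D2:**
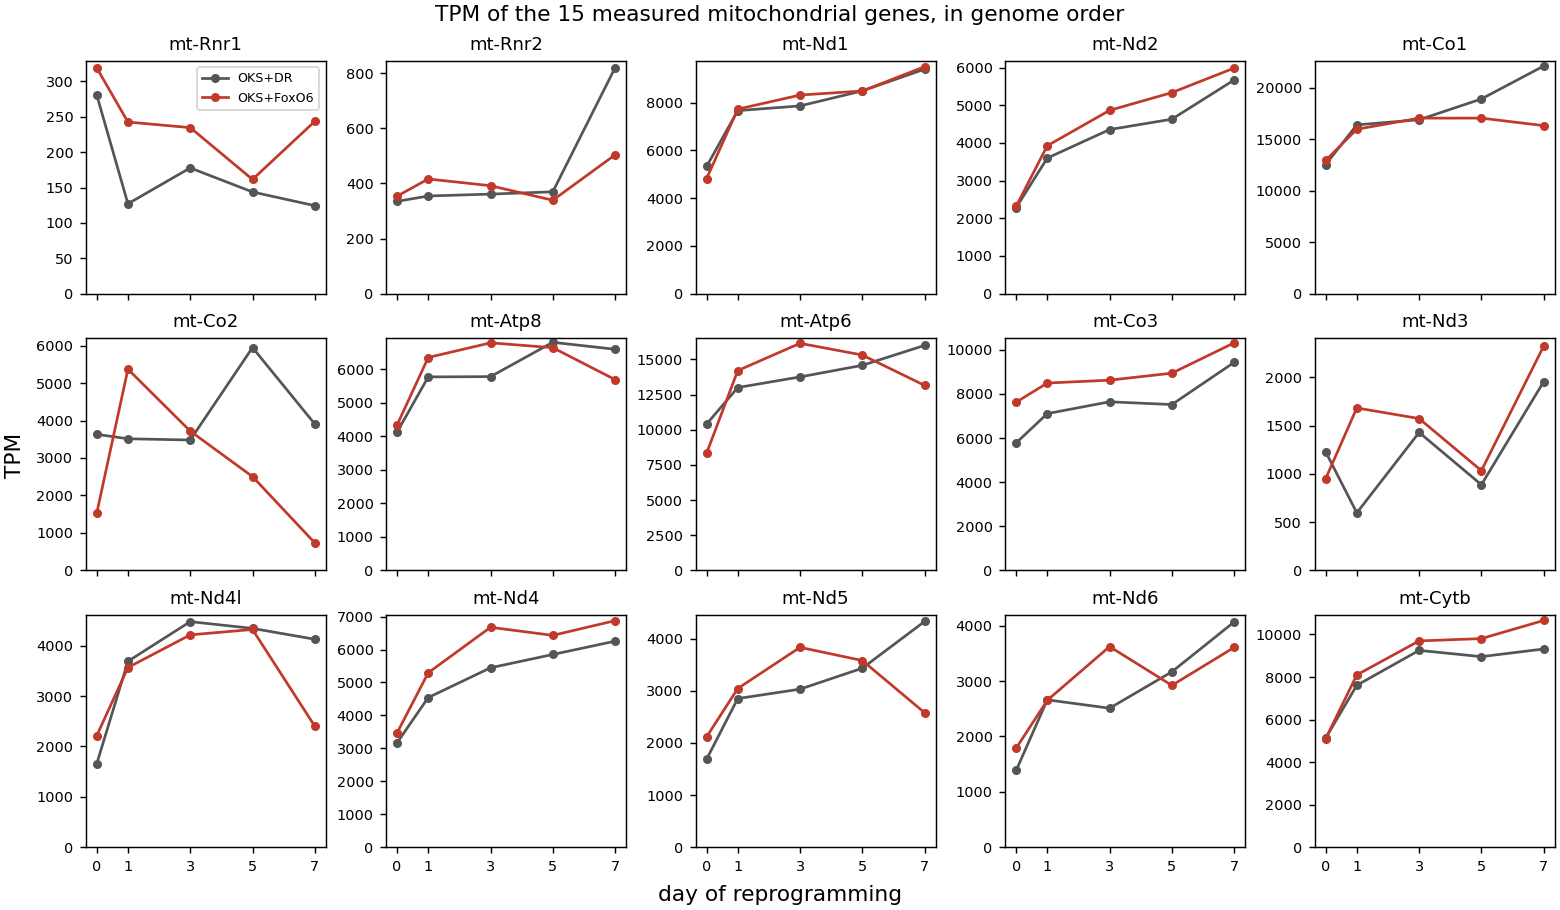
TPM of each of the 15 measured mitochondrial genes by day, on an axis that starts at 0 in each panel, with 1 point per library for OKS+DR (grey) and OKS+FoxO6 (red). Most genes climb from day 0 to day 7 in both arms, mt-Rnr1 is lower after day 0, and mt-Co2 and mt-Nd3 move up and down between libraries.

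For mt-Co2 and mt-Nd3, the division of reads between gene and copy changed from library to library. The copy Gm28661 was given 59.1% to 95.8% of the counts of the pair with mt-Co2. In OKS+DR this was 68.3%, 72.0%, 76.5%, 61.7% and 77.2% over the 5 days, and in OKS+FoxO6 85.8%, 59.1%, 75.1%, 82.8% and 95.8%. mt-Co2 (MT, 7013 to 7696) on its own had a TPM of 3632, 3513, 3479.6, 5946 and 3906 in OKS+DR and of 1534, 5369.9, 3717, 2503 and 734 in OKS+FoxO6. Its CPM differed by 7.13 times between the highest and the lowest library, and those of the summed pair by 1.90 times. The lowest CPM of mt-Co2 was that of OKS+FoxO6 at day 7, and without this library the difference was 3.98 times. For mt-Co2 alone the log2 fold change at day 7 was -0.29 (95% interval -1.42 to 0.83, adjusted p = 0.745), and for the pair it was 0.68 (0.35 to 1.01, adjusted p = 0.00756).

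mt-Nd3 (MT, 9459 to 9806) had a TPM of 1228, 596, 1429.5, 888 and 1955 in OKS+DR and of 951, 1683, 1573, 1033 and 2323.5 in OKS+FoxO6. Gm28438 was given none of the counts of the pair in 3 libraries and 52.8% in OKS+DR at day 1. Alone, mt-Nd3 had a log2 fold change of 0.98 and an adjusted p of 0.0662, and as a pair 1.13 with an adjusted p of 0.00205. Alone it also passed the threshold with DESeq2 (adjusted p = 0.0387), with no filter on low counts (0.000332) and without day 1 (0.0168), and over the other alternatives its adjusted p ran up to 0.167. The other copies differed in this. Gm10925 was given 22.3% of the counts of the pair with mt-Atp6 in OKS+FoxO6 at day 7, 17.9% in OKS+FoxO6 at day 0 and 8.54% in OKS+DR at day 3, and at most 1.01% in the other 7 libraries. The share of Gm29216, which differs from mt-Co1 at 6 bases, stayed between 9.86% and 14.9%, that of Gm10222 with mt-Nd4l at or under 4.81%, and Gm28439 held at most 0.0903% of the counts of the pair with mt-Nd4. Summed with their copies, 13 of the 15 genes were called higher at day 7, with mt-Co2 and mt-Nd3 gained and mt-Co3 lost. Which genome the shared reads came from was not tested.

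**Figure D3:**
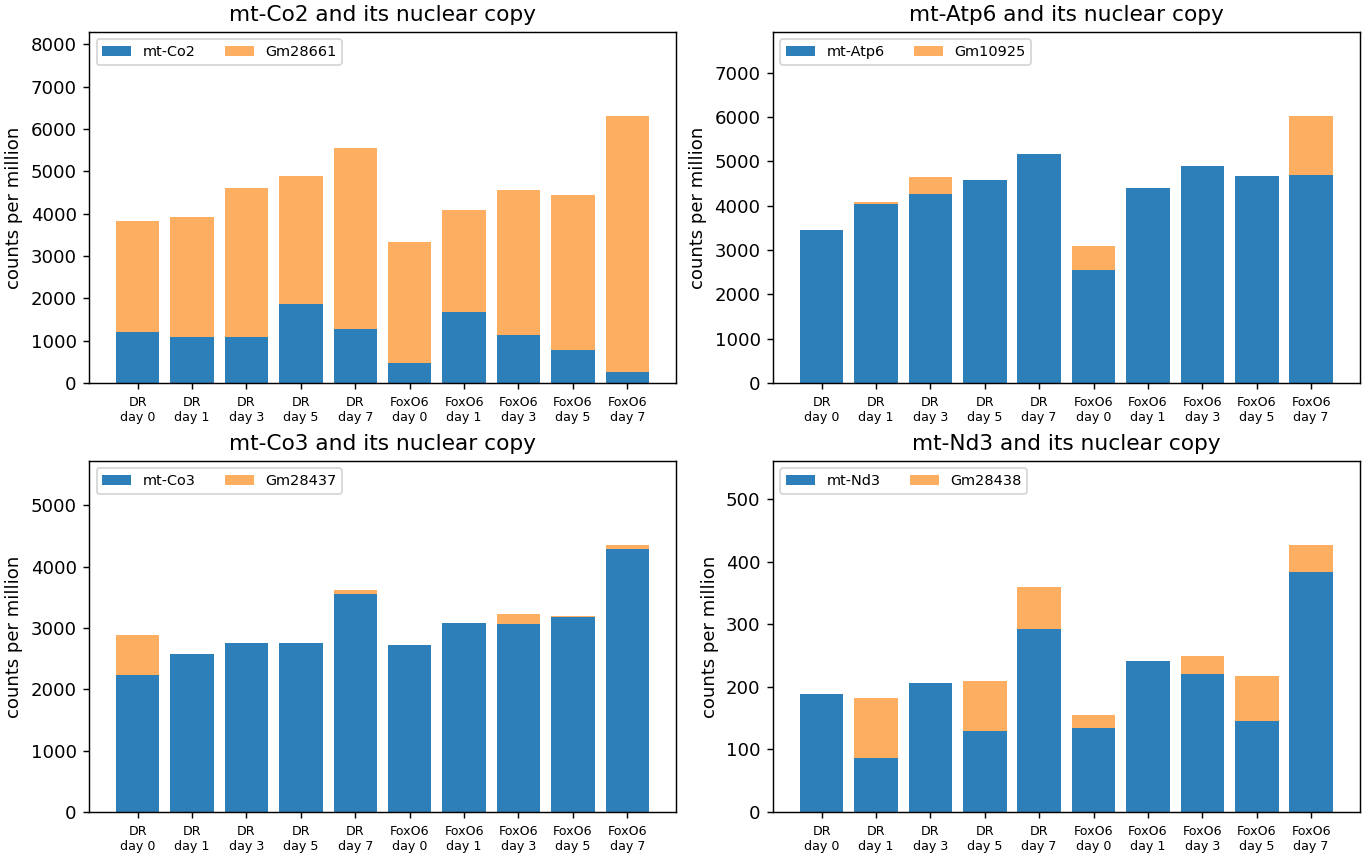
Counts per library total (CPM) of 4 mitochondrial genes (blue) and of their nuclear copies on chromosome 1 (orange), stacked, for the 5 days of OKS+DR and of OKS+FoxO6. The blue part of mt-Co2 varies 7.13 times between libraries (3.98 times without OKS+FoxO6 at day 7) and the whole bar 1.90 times, and the copies of mt-Atp6, mt-Co3 and mt-Nd3 hold a visible part in some libraries and none in others.

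By complex, and with copies included, the 7 mitochondrial genes of complex I went from 8322 to 17407 summed CPM in OKS+DR (2.09 times) and from 8178 to 17782 in OKS+FoxO6 (2.17 times). mt-Cytb of complex III changed 1.77 and 2.43 times, the 3 genes of complex IV 1.58 and 1.60 times, and the 2 genes of complex V 1.501 and 1.91 times. Of 74 nuclear genes of complexes I to V tested, 1 was called higher at day 7 and none lower, where 11.2% of all genes tested were called higher and 10.1% lower. The one was Ndufa6, an accessory subunit of complex I (log2 fold change 0.86, SE 0.25, adjusted p = 0.0324). The median log2 fold change of the 74 genes was 0.092. The summed CPM of the 75 nuclear genes, 1 of which was not tested, at day 7 were 0.886 times those of day 0 in OKS+DR and 1.40 times in OKS+FoxO6, where the library of day 7 alone was high (8233, against 5871 to 6506 at the earlier days). In that arm the nuclear genes of complex I ended at 1.51 times and those of complex IV at 1.49 times day 0 in CPM. In OKS+DR they ended at 0.930 and 0.832 times. In TPM these ratios were smaller in OKS+FoxO6, at 1.331 and 1.280, and stood at 0.919 and 0.831 in OKS+DR. The summed TPM of all 75 genes went from 14015 to 17554 in OKS+FoxO6 and from 15508 to 13687 in OKS+DR. The OKS+FoxO6 library of day 7 is the one whose counts fell on shorter genes. The part of that in the CPM ratios was not tested. The difference between nuclear and mitochondrial genes was not tested.

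Genes that act on mitochondrial DNA and RNA were looked up in 3 lists. Of 18 genes of transcription and its regulation, 12 had enough counts to be tested, with a median log2 fold change of -0.15. Of these, 1 was called higher at day 7 and none lower, beside 11.2% and 10.1% of all genes tested. This was Mterf4, a factor that works with a methyltransferase in the assembly of the mitochondrial ribosome, with a TPM of 8.30, 25.6, 25.2, 25.6 and 26.0 in OKS+DR and of 9.45, 15.1, 17.01, 25.02 and 28.6 in OKS+FoxO6 (log2 fold change 2.197, SE 0.40, adjusted p = 0.00228). Polrmt had a log2 fold change of -0.14, Tfam of -0.59 and the transcription factor Tfb2m of -0.48, with adjusted p-values of 0.767, 0.207 and 0.353. Of 11 genes of replication and packaging, 10 were tested and none was called. The DNA polymerase Polg stood at 0.068 and the helicase Twnk, listed as Peo1, at -0.070.

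Of 19 genes of RNA processing, stability and polyadenylation, 1 was called higher at day 7 and none lower, again beside 11.2% and 10.1% of all genes. This was Grsf1, an RNA-binding protein of mitochondrial RNA granules. Its TPM was 115, 204, 226, 267 and 305 in OKS+DR, a rise at each step, and 90.1, 114, 181, 159 and 150.1 in OKS+FoxO6. The log2 fold change was 1.11 (SE 0.20, adjusted p = 0.00201). Lrpprc and Slirp, which bind and stabilise mitochondrial mRNAs, had 0.16 and 0.37, the poly(A) polymerase Mtpap -0.31 and the exoribonuclease Pnpt1 0.21, all with adjusted p-values over 0.4.

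**Figure D4:**
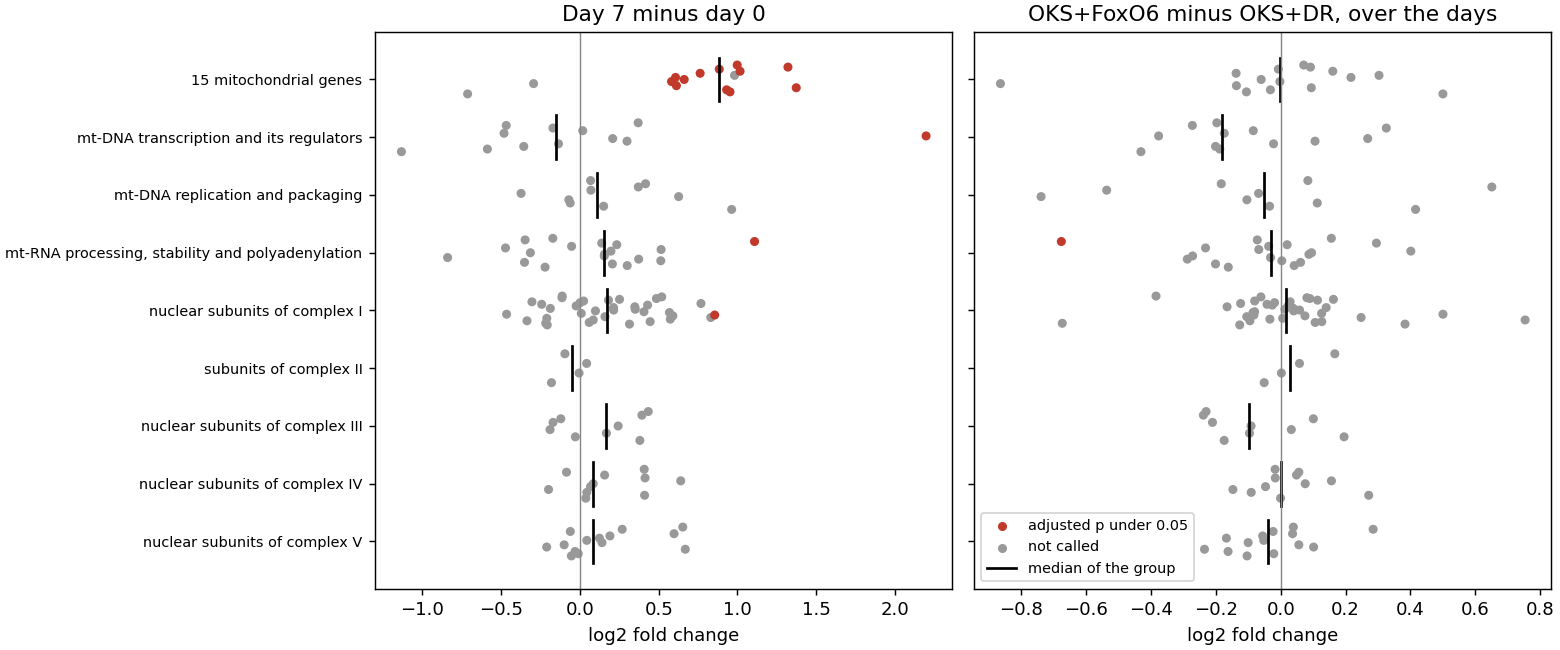
Log2 fold changes of the 15 mitochondrial genes and of 8 lists of nuclear genes, for day 7 against day 0 (left) and for OKS+FoxO6 against OKS+DR over the days (right); each point is a gene, red where the adjusted p is under 0.05 in edgeR's test, and the black line is the median of the group. At day 7 the median is 0.88 for the mitochondrial genes and between -0.15 and 0.17 for the lists, and in the comparison of the arms the single red point is Grsf1.

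The arms were compared in the same fit, with the 5 days as repeats. None of the 15 mitochondrial genes was called in edgeR's quasi-likelihood test, where 14.1% of the 10977 genes tested were called in either direction, and 3 had an unadjusted p under 0.05. DESeq2 also called none, with 1 under 0.05. The log2 fold changes, OKS+FoxO6 against OKS+DR, had a median of -0.0027. For the 13 genes other than mt-Rnr1 and mt-Co2 they lay between -0.14 and 0.30. The 95% intervals, which are not adjusted, reached a median of 0.25 to either side of the estimate. A call on the adjusted p asked for more than that, and mt-Rnr1 at 0.50 (adjusted p = 0.0798) was not called. The lack of a call thus does not exclude shifts larger than 0.25. mt-Cytb had 0.071 (-0.15 to 0.29), mt-Nd1 -0.032 (-0.25 to 0.19) and mt-Atp8 -0.0027 (-0.23 to 0.23).

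The 3 genes with an unadjusted p under 0.05 were mt-Rnr1, mt-Co2 and mt-Co3. mt-Rnr1 was higher in OKS+FoxO6 on all 5 days, by 1.05, 1.91, 1.30, 1.09 and 2.16 times in CPM, with a log2 fold change of 0.50 (SE 0.17, adjusted p = 0.0798). It passed the threshold without day 0 (0.63, adjusted p = 0.0441) and with no filter on low counts (0.53, adjusted p = 0.0107), and without the OKS+FoxO6 library of day 7 it was 0.35 (adjusted p = 0.17). The adjusted p ran from 0.0107 to 0.476 over all alternatives. mt-Co3 was also higher on all 5 days in CPM (log2 fold change 0.22, SE 0.091, adjusted p = 0.146), and summed with its copy it stood at 0.16 (-0.053 to 0.37) and was lower in OKS+FoxO6 at day 0 (0.944 times). In CPM mt-Nd4 was also higher on all 5 days (1.01, 1.17, 1.21, 1.07 and 1.21 times, log2 fold change 0.16, adjusted p = 0.313) and mt-Co1 lower on all 5 (0.954, 0.977, 0.993, 0.878 and 0.813 times, -0.14, adjusted p = 0.359), and both were so with copies too. Neither was called, and in TPM mt-Co1 was higher in OKS+FoxO6 at days 0 and 3 (1.03 and 1.01 times). mt-Co2 alone stood at -0.86 (-1.62 to -0.11, adjusted p = 0.123), the lowest of the 15. It was called without day 1 (-1.23, adjusted p = 0.0353) and with no filter (-0.83, adjusted p = 7.08e-10). With no filter 22663 genes entered edgeR's fit instead of 10977, and the estimate stayed close to that of the main fit. Why its adjusted p was so much lower there was not tested. The pair of mt-Co2 and Gm28661 stood at -0.038 (-0.25 to 0.17) and was not called.

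**Figure D5:**
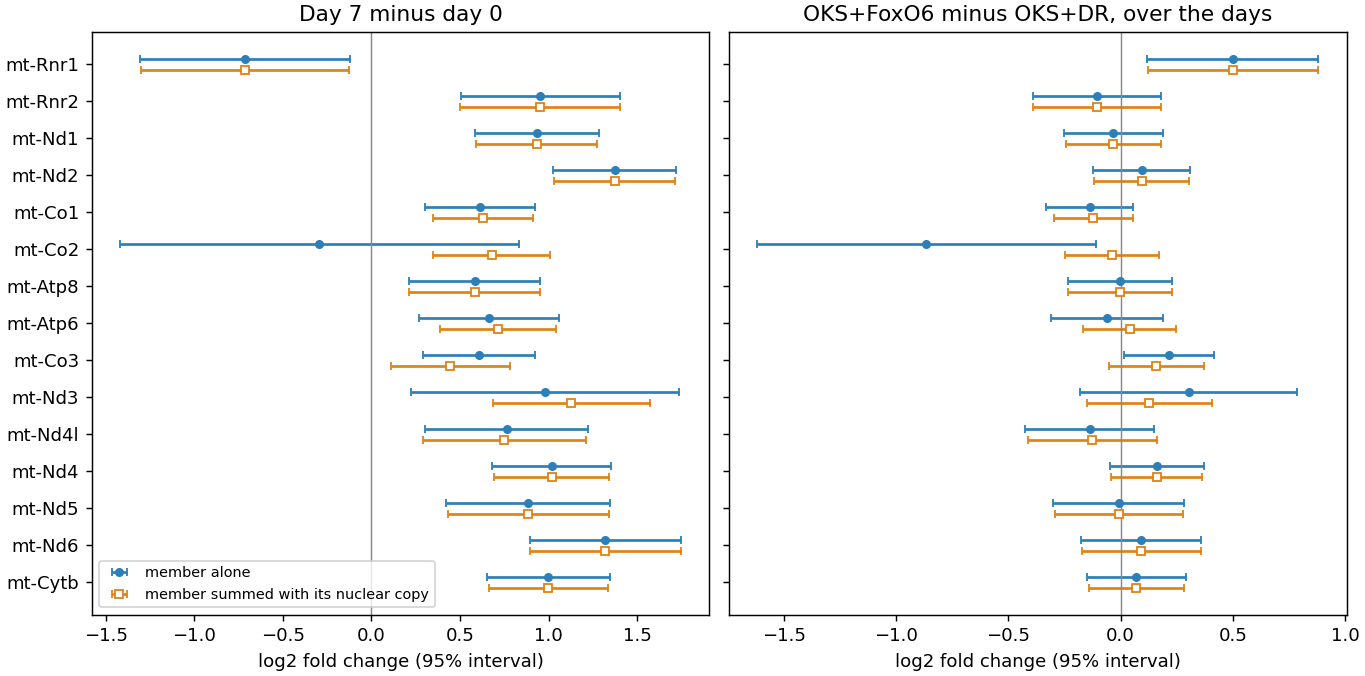
Log2 fold changes with 95% intervals from edgeR's fit for each mitochondrial gene in genome order, alone (blue) and summed with its nuclear copy where it has one (orange); left, day 7 against day 0, and right, OKS+FoxO6 against OKS+DR over the days. Summing moves mt-Co2 from -0.29 to 0.68 on the left and from -0.86 to -0.038 on the right, and shortens its interval.

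The test of a different slope over the days between the arms called none of the 15 mitochondrial genes in edgeR, where 0% of 10977 genes were called, and none of the 15 had an unadjusted p under 0.05. DESeq2 called none of them either, with 1 under 0.05. The lowest adjusted p among them was 0.616. Day by day, the ratio of OKS+FoxO6 to OKS+DR in CPM, each gene summed with its copy, was closest together at day 5, with 0.888 (mt-Co1) to 1.16 (mt-Co3), and ran from 0.930 (mt-Nd4l) to 1.41 (mt-Nd6) at day 3. It was widest at day 7, from 0.641 for mt-Nd4l to 2.16 for mt-Rnr1. At day 1, 13 of the 15 genes were above 1, and at day 0 there were 5. The OKS+FoxO6 library of day 7, which takes part in the widest of these spreads, is the one whose counts fell on shorter genes, and the part of that in these ratios was not tested.

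Between the arms, 1 of the 19 genes of RNA processing was called, and none of the 12 genes of transcription or the 10 of replication and packaging, beside 14.1% of all genes tested. The one was Grsf1. It was lower in OKS+FoxO6 on every day, with a log2 fold change of -0.68 (SE 0.12, adjusted p = 0.00475). Hspd1, a chaperone of the mitochondrial matrix from a list of 5 other mitochondrial proteins, was also called lower (-0.45, SE 0.12, adjusted p = 0.0276), with 252 TPM in OKS+DR and 198 TPM in OKS+FoxO6 at day 1 and 274 and 174 TPM at day 7. None of the 74 nuclear genes of complexes I to V was called, again beside 14.1% of all genes tested, and their median was -0.0087. Polrmt (-0.022), Tfam (-0.19), Tfb2m (-0.17), Polg (0.084), Twnk (-0.10), Lrpprc (0.087), Slirp (-0.29), Mtpap (0.095) and Pnpt1 (-0.20) were not called.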

How the data were processed

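RNA-seq was measured in 10 libraries of reprogrammed MEFs, grouped by the arm and day in their titles. Reads were mapped by the authors to GENCODE M13 transcripts, with Bowtie2 and RSEM (mm10; versions of the tools are not given in the sources used here). The expected counts they deposited were estimated by RSEM and not normalized, and the deposited TPM values come from the same runs. The study names a TruSeq kit and the labels a VAHTS mRNA-seq V3 kit. RSEM divides reads that match several genes by estimate, so identical genes share an uncertain split.

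Expected counts were rounded and fitted in R 4.3.3 with edgeR 4.0.16 (TMM, filterByExpr, quasi-likelihood test, Benjamini-Hochberg adjustment over all genes, threshold 0.05). The designs were day as a factor plus arm, and arm by day as a number for the slope. DESeq2 1.42.0 was an alternative. Shares have exact binomial 95% intervals, and single days were compared as log2(TPM + 1), with a pseudocount of 1, or as CPM, counts scaled to the table total of a library. Python 3.11.15 with pandas 2.3.3, numpy 2.4.6, scipy 1.17.1 and matplotlib 3.10.9 was used, and the fits were tested on simulated data. Depth was 1206378 to 2221440 counts (median 1598066).

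Sequences and coordinates are from GENCODE M21 on GRCm38. A copy is the nuclear gene that shares most 50-base windows with a mitochondrial gene, at least 200. This rule and the sums with copies were chosen after the data were seen, as was the fit without the OKS+FoxO6 library of day 7. All MT genes are accounted for, those with a mean of at least 10 expected counts singly. Of the gene lists, members past the threshold are named, and Polrmt, Tfam, Tfb2m, Polg, Twnk, Lrpprc, Slirp, Mtpap and Pnpt1 in any case. The genes and lists were chosen with earlier results of these data known. The 2124 genes that only the files per library hold, with at most 0.312% of the counts, stayed out of the fits.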

Additional observations from a re-analysis of the deposited data

How the results depend on the processing

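At day 7 against day 0, 12 mitochondrial genes were called; 8 were called with a linear trend, in which log2 changes are per day, 13 with DESeq2, 13 with no filter (1 of them, mt-Rnr1, lower), 13 with members summed with copies, and 12 with upper quartile factors or without the mitochondrial genes in the scaling. Leaving out days 1, 3 or 5, or the OKS+FoxO6 library of day 7, gave 10 to 13. Of all genes tested, 1228 of 10977 were called higher in the main fit, 1090 of 10977 with the linear trend and 958 of 10977 with DESeq2. With no filter 1657 of 22663 were called higher and 1454 lower, and with copies summed 1226 of 10973 higher. With upper quartile factors 1221 of 10977 were called higher, and 1229 without the mitochondrial genes in the scaling. With day 1, 3 or 5 left out, 956 to 1141 genes were called higher. mt-Co2 turned from -0.29 to 0.68 when it was summed with Gm28661. Between the arms 0 mitochondrial genes were called, 2 with no filter, and 0 to 1 with a day or that library left out. Of all genes tested, 1544 of 10977 were called between the arms in the main fit and 1179 of 10977 with DESeq2. With no filter 2249 of 22663 were called, and 663 to 1569 with a day left out. The slope gave 0 mitochondrial genes throughout. Of the single-gene values at day 7, 133 kept their side of the threshold over the alternatives, 10 lost the call, 6 gained it and 1 reversed; between the arms 176 kept it and 4 gained a call.

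The ratio of the mitochondrial share at day 7 to day 0 was 1.72 in OKS+DR and 1.85 in OKS+FoxO6 with the chromosome 1 copies, and 1.56 in OKS+FoxO6 as a share of TPM. OKS+FoxO6 to OKS+DR was 0.945, 1.05, 1.06, 0.980 and 1.02 on the 5 days with the copies, and 0.987, 1.10, 1.11, 0.988 and 0.873 as a share of TPM. The median difference between the arms was 0.072, 0.13, 0.16, 0.060 and -0.17 on the 5 days in log2(TPM + 1), and -0.10, 0.10, 0.13, 0.0024 and -0.034 in CPM with TMM. At day 7 it was -0.19 with TPM rescaled without the mitochondrial genes. The cause of these moves was not tested. The labels give no replicate numbers. The main fit pairs the arms by day, and with no day term 0 of the 15 genes were called between the arms. In that fit 168 of all 10977 genes tested were called. At the same depth, summing mt-Nd3 with its copy lowered its SE at day 7 from 0.34 to 0.20; mt-Rnr1, with a mean of 159.6 counts, had the fewest counts of the 15 genes.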
